A study of Drosophila melanogaster with 24 samples.

Results

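Whole animals of pupal stage 2, a stage of metamorphosis, were compared with larvae of the fruit fly Drosophila melanogaster, using 3 arrays per stage, 6 of the 24 arrays of the series. The arrays were assigned to the stages by their labels. The pupae were picked by hand, and larvae of different stages were pooled into 1 larval sample kind, so the larval values average over stages that the labels do not list. The labels give no strain, age in hours, sex or feeding state for these animals. Each array carried RNA of the stage in one dye and RNA of 0 to 4 h embryos in the other, and the labels do not say if that embryo RNA was a single preparation. In pupal stage 2 the stage was labelled with Cy3 on arrays a and b and with Cy5 on array c, and in larvae with Cy3 on arrays b and c and with Cy5 on array a. A level below is a log2 ratio, stage to 0 to 4 h embryo, averaged over the 2 spots of a probe and centred on the array's median, and a difference is pupal stage 2 minus larvae on the log2 scale, given ± SE. Differences were called at an adjusted p under 0.05 (limma, Benjamini-Hochberg over 23808 probes). The labels speak of independent experiments without saying where the replicates came from, so each p-value reflects only how far replicate arrays lie apart, and that spread may be technical. The spread behind each SE and p-value was estimated over 23 arrays of all 8 stages, most of them outside this comparison. With the 6 arrays alone 91 probes passed in place of 484.

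At metamorphosis the steroid hormone ecdysone drives most larval organs into programmed cell death while the imaginal discs and other set-aside cells build the adult. The larval salivary glands make glue proteins that fix the animal to its support before pupation, and the larval midgut makes the proteases of a feeding animal. In the pupa the epidermis lays down first pupal and then adult cuticle, flight muscle and eyes differentiate, and germ cells develop. In RNA of whole animals, fewer cells of a type and less RNA per cell cannot be told apart.

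The arrays differed in ways the stages do not explain. Across probes, which are not independent replicates, arrays a and b of pupal stage 2 correlated at 0.904 with each other and at 0.504 and 0.477 with array c. Larval arrays b and c correlated at 0.642 with each other and at 0.338 and 0.347 with array a, whose spread over probes (SD 0.97) was below that of b and c (1.63 and 1.65). Arrays of different stages with the same dye correlated at 0.399 to 0.669, above the 0.278 to 0.349 of arrays of different stages with opposite dyes, which is why a dye term stood in the fit. The duplicate spots of a probe correlated at 0.71 to 0.84 on the arrays of pupal stage 2 and at 0.41 to 0.54 on those of larvae. The table gives no intensities, so whether a spot lay above background is not known here.

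Between pupal stage 2 and larvae 484 of 23808 probes (2.03%) passed, 313 higher (1.31%) and 171 lower (0.718%) in pupal stage 2. A total of 2904 probes had an unadjusted p under 0.05. The smallest called difference was 1.43 in size and the median SE of a difference was 0.60, so changes below about this size were not detectable with 3 arrays per stage. On simulated data of the same spread, 24.2% of changes of 2, 76.1% of changes of 3 and 97% of changes of 4 on the log2 scale were recovered. The simulated noise was independent between arrays and held no dye effect, unlike the arrays compared here, so recovery in the real data was not measured. Among probes with 1 gene symbol 261 were higher (1.94%) and 146 lower (1.09%), the shares against which the gene lists below are read. The calls belong to 388 genes, 249 higher and 139 lower, with called probes of both signs for 0 genes. Of the 484 called probes, 468 had no overlap between the 3 arrays of pupal stage 2 and the 3 of larvae, as did 4130 probes (17.3%) in all. Without larval array a 512 probes passed, 257 higher and 255 lower, and without array b of pupal stage 2, the array whose removal cost most, 173 passed, 115 higher and 58 lower. Without centring, where the median difference of all probes was -0.69 in place of -0.07, 120 probes passed, 33 higher and 87 lower. All changes below are therefore relative to the median probe.

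**Figure D1:**
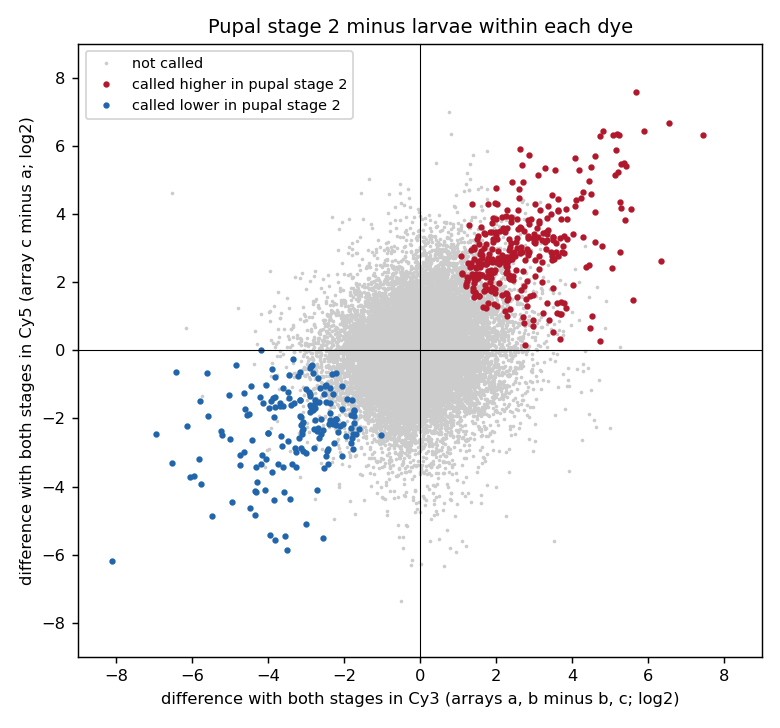
Difference of each probe between pupal stage 2 and larvae on the log2 scale, from the arrays with both stages in Cy3 (x axis, arrays a and b of pupal stage 2 minus b and c of larvae) and in Cy5 (y axis, array c of pupal stage 2 minus a of larvae). Probes called higher in pupal stage 2 are red, those called lower blue and the rest grey, and 483 of the 484 called probes have the same sign in both dyes.

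Because both stages had 2 arrays with the stage in Cy3 and 1 in Cy5, the difference could also be taken within each dye. Of the 484 called probes 483 had the same sign in Cy3 and in Cy5, which is a description, since the call itself rests on these arrays. The median difference of the probes called higher was 2.43 in Cy3 and 2.80 in Cy5. For the probes called lower it was -3.15 in Cy3 and -2.16 in Cy5, where the larval array is a.

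**Figure D2:**
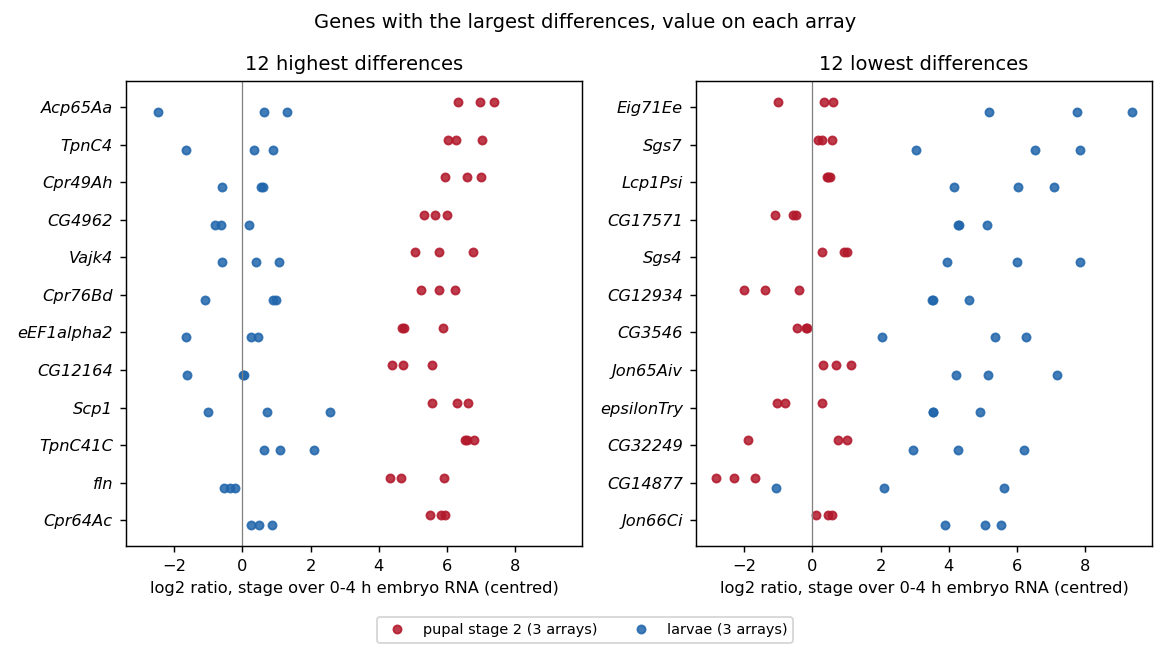
Level on each array (x axis, log2 ratio over 0 to 4 h embryo RNA) of the 12 genes with the highest and the 12 with the lowest difference among called genes without overlap. Red points are the 3 arrays of pupal stage 2 and blue points the 3 arrays of larvae. Red points lie between 4.34 and 7.37 in the left panel, and in the right panel all lie below the blue points of their gene.

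The 12 highest differences belonged to 5 cuticle genes, 4 muscle genes and 3 others. Acp65Aa, which encodes a protein of the adult cuticle, was at 6.32, 7.37 and 6.96 on arrays a, b and c of pupal stage 2, against 0.65, -2.46 and 1.30 on arrays a, b and c of larvae. Its difference of 7.05 ± 0.99 (adjusted p = 0.000399) was the largest positive one, although its duplicate spots lay up to 6.74 apart. Vajk4, which encodes a cuticle protein, was at 5.07, 5.78 and 6.75 in pupal stage 2, against 0.39, 1.07 and -0.58 in larvae. eEF1alpha2, an isoform of the elongation factor that brings aminoacyl-tRNA to the ribosome, was at 4.75, 4.69 and 5.88 in pupal stage 2, against 0.46, 0.26 and -1.64 in larvae (difference 5.42 ± 0.55, adjusted p = 1.05e-05), with duplicate spots up to 5.07 apart. The genes CG4962, with a difference of 6.06 ± 0.50, and CG12164, with 5.40 ± 0.47, are known in the files by number alone. Absence of overlap was part of the rule that chose these genes. Each of the genes named here stayed called when any 1 of the 6 arrays was left out.

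The 12 lowest differences belonged to genes of larval salivary gland, gut and cuticle and to 5 genes known by number. Eig71Ee, which ecdysone induces in salivary glands at the end of larval life, was at 0.33, 0.59 and -1.0 in pupal stage 2, against 5.18, 7.77 and 9.37 in larvae. Its difference of -7.46 ± 0.66 (adjusted p = 1.92e-06) was the largest of all called probes in either direction. CG17571 was at -1.10, -0.47 and -0.56 in pupal stage 2, against 4.29, 5.14 and 4.29 in larvae, and CG12934 at -1.40, -2.01 and -0.39 in pupal stage 2, against 3.53, 4.60 and 3.52 in larvae. These larval levels were high on all 3 arrays, array a included. In contrast CG14877 was at -2.82, -2.29 and -1.68 in pupal stage 2, against -1.05, 2.10 and 5.63 in larvae, and its difference of -4.49 ± 0.99 was -2.80 without larval array c (adjusted p = 0.0729). It also missed the threshold without array a or b of pupal stage 2 (adjusted p = 0.105 and 0.0879). For 1 probe CG32249 had a difference of -4.51 ± 1.16 (adjusted p = 0.0459) that missed the threshold without any 1 of the 6 arrays (adjusted p = 0.0541 to 0.244). Another probe of CG32249 was called too, with a difference of -3.79 ± 0.78 (adjusted p = 0.012). The difference of CG3546, -4.83 ± 1.02, missed the threshold without array a or b of pupal stage 2 or b or c of larvae (adjusted p = 0.0556 to 0.0799).

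**Figure D3:**
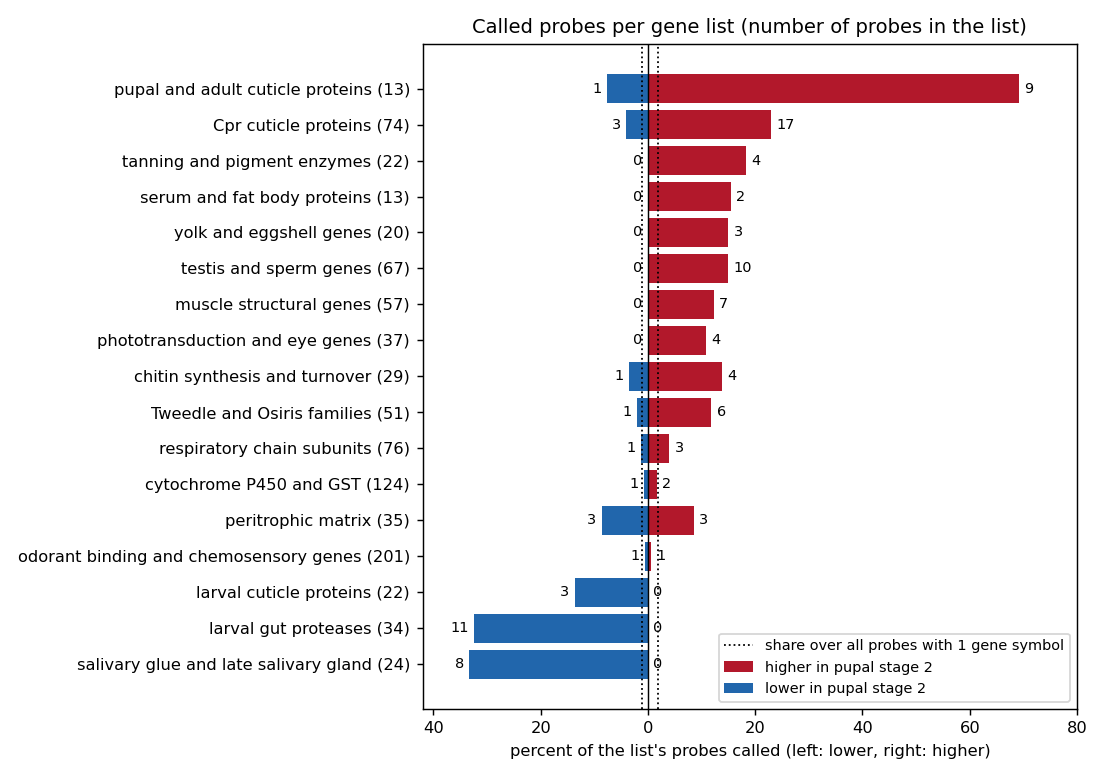
Percent of each gene list's probes called higher (red, right) or lower (blue, left) in pupal stage 2 than in larvae, for lists with at least 2 called probes. The number of probes in the list stands in brackets and the number called at the bar's end, and dotted lines mark the 1.94% and 1.09% over all probes with 1 gene symbol.

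Part of the genes of the larval salivary gland fell in pupal stage 2. The glue proteins are secreted into the gland's lumen by polytene cells that are lost early in metamorphosis, and the Eig71E and new-glue genes are expressed in the same gland. Of 24 probes for glue and late salivary gland genes 8 fell and 0 rose, and 16 did not pass, with a median difference of -1.47 against -0.07 over all probes. Sgs7 was at 0.15, 0.28 and 0.58 in pupal stage 2, against 3.04, 6.52 and 7.85 in larvae (difference -5.47 ± 0.78, adjusted p = 0.000439). Sgs4 was at 0.93, 1.01 and 0.27 in pupal stage 2, against 3.96, 5.99 and 7.85 in larvae (difference -5.20 ± 1.02, adjusted p = 0.00839), with duplicate spots up to 4.61 apart. Sgs8 was at 0.06, 0.24 and 0.31 in pupal stage 2, against 0.96, 4.05 and 7.50 in larvae (difference -3.96 ± 0.99, adjusted p = 0.0402). In each of these genes the larval arrays spread widely, with array a lowest and array c highest, while the arrays of pupal stage 2 lay within about 1 of the median probe. Sgs1 and ng2, outside the rule for naming, were also called, with differences of -2.78 and -2.70. Among members that did not pass, Eig71Eh differed by -2.56 ± 0.86 and ng4 by -2.35 ± 0.83. The list had 3 to 6 lower probes when 1 array was left out, 3 without array b of pupal stage 2, 4 without its array c or larval array c, 5 without array a of pupal stage 2 or larval array b, and 6 without larval array a. Sgs4 was at -4.69 without array c of pupal stage 2 (adjusted p = 0.0634) and -4.09 without larval array c (adjusted p = 0.0536), and Sgs8 missed the threshold without any 1 array other than larval array a (adjusted p = 0.0717 to 0.185).

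All calls among digestive proteases of the midgut were lower in pupal stage 2. These are the trypsins and the Jonah family of serine proteases, which cut dietary protein in the gut of feeding animals. Of 34 probes 11 fell (32.4%, against 1.09% over probes with 1 symbol) and 0 rose, 23 did not pass, and the median difference was -1.77. Jon65Aiv was at 1.14, 0.33 and 0.70 in pupal stage 2, against 5.16, 7.16 and 4.21 in larvae (difference -4.79 ± 0.70, adjusted p = 0.000609). The trypsin gene epsilonTry was at -1.05, -0.82 and 0.28 in pupal stage 2, against 4.91, 3.55 and 3.54 in larvae (difference -4.53 ± 0.71, adjusted p = 0.00124). Jon66Ci was at 0.47, 0.59 and 0.10 in pupal stage 2, against 5.52, 5.08 and 3.90 in larvae (difference -4.45 ± 0.58). The related protease gene yip7 was at 0.67, 0.89 and -0.85 in pupal stage 2, against 5.00, 4.81 and 3.80 in larvae (difference -4.30 ± 0.65). For these 4 genes larval array a was no lower than array c, and none overlapped between the stages. Jon65Aiv, epsilonTry and Jon66Ci are also among the lowest differences named above, a choice that required absence of overlap. For these genes it is therefore no separate evidence of a fall. Jon44E, at 0.20, 0.25 and 1.46 in pupal stage 2, against 1.14, 4.33 and 3.99 in larvae, did not pass (adjusted p = 0.209), and neither did Jon25Bi (-2.42 ± 0.64, adjusted p = 0.0557). The count of lower probes was 11 without any 1 array except larval array a, without which it was 16, and it was 11 without centring and 4 with the 6 arrays alone. Jonah genes are close in sequence, and whether a probe also bound RNA of its relatives was not tested.

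Lists of other gut genes and of chitin-binding proteins, not all of them of the gut, together gave calls in both directions. Of 25 probes for digestive carbohydrases and lysozymes 1 fell, LysS, a lysozyme, at -0.19, -0.40 and 0.15 in pupal stage 2, against 1.54, 3.61 and 3.56 in larvae (difference -3.05 ± 0.52, adjusted p = 0.00281). The count was 3 without larval array a. The median of this list was -0.85, and 9 of its probes had an unadjusted p under 0.05, all lower. Of 35 probes for mucins, peritrophins and other chitin-binding proteins 3 rose and 3 fell. Among those that fell, Muc55B, a mucin, was at -0.61, -1.36 and -1.93 in pupal stage 2, against 1.44, 4.84 and 2.69 in larvae (difference -4.29 ± 0.53, adjusted p = 9.53e-05). Peritrophin-15a, a protein of the membrane that lines the gut, differed by -3.01 ± 0.65 and was at -2.29 without larval array c (adjusted p = 0.0945), at -2.86 without array a and -2.90 without array b of pupal stage 2. Among those that rose, obst-A, a chitin-binding protein of the cuticle, differed by 2.33 ± 0.50 (adjusted p = 0.0155) but was at 1.91 without larval array a (adjusted p = 0.0759) and also missed the threshold without array b or c of pupal stage 2 or larval array c. Muc12Ea differed by 2.26 ± 0.47 and by 1.75 without array c of pupal stage 2 (adjusted p = 0.109), and missed the threshold without larval array a or c too (adjusted p = 0.0505 and 0.0613). The higher count was 0 without larval array a or array c of pupal stage 2 and 1 without array b of pupal stage 2 or larval array c, and the lower count was 1 without array a or b of pupal stage 2.

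Cuticle genes gave calls in both directions. Of 22 probes for larval cuticle proteins, which form the soft cuticle of the larva, 3 fell and 0 rose. Lcp1Psi, annotated as a pseudogene of the larval cuticle cluster, was at 0.52, 0.45 and 0.43 in pupal stage 2, against 4.15, 7.08 and 6.03 in larvae (difference -5.29 ± 0.60, adjusted p = 4.21e-05), with duplicate spots up to 6.84 apart. Lcp65Ag1 was at -0.18, -0.39 and 0.70 in pupal stage 2, against 4.03, 4.92 and 1.25 in larvae (difference -3.35 ± 0.61, adjusted p = 0.00466). Its near copy Lcp65Ag3, at 0.10, 0.02 and 0.72 in pupal stage 2, against 4.15, 6.92 and 1.40 in larvae, did not pass (difference -3.88, adjusted p = 0.106). Without larval array c, which holds the lowest larval value of both genes, it passed at -5.15. The list had 5 lower probes without that array. Binding of Lcp1Psi and Lcp65Ag probes to RNA of their gene copies was not tested.

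Most probes for pupal and adult cuticle genes rose. Of 13 probes for these proteins 9 rose (69.2%, against 1.94% over probes with 1 symbol), 1 fell and 3 did not pass, with a median difference of 3.79. Besides Acp65Aa and Vajk4 they include Cpr49Ah, a protein of the CPR cuticle family, at 5.95, 6.58 and 6.99 in pupal stage 2, against -0.59, 0.61 and 0.56 in larvae (difference 6.31 ± 0.54, adjusted p = 1.75e-06). resilin, the elastic protein of wing hinges and tendons, was at 5.71, 5.95 and 6.45 in pupal stage 2, against 1.15, 2.82 and 0.49 in larvae (difference 4.55 ± 0.55, adjusted p = 8.28e-05). The neighbouring genes Vajk1, Vajk2 and Vajk3 were called too, at 5.23, 4.79 and 6.29 on average in pupal stage 2, against 1.40, 2.42 and 2.50 in larvae. Some members were lower or did not pass. Edg91, an ecdysone-dependent gene named here outside the rule, fell by 2.00, and Pcp and Edg78E did not pass. Pcp, the pupal cuticle protein gene, was at 1.30, 1.77 and 0.54 in pupal stage 2, against 0.13, 2.58 and 2.85 in larvae (difference -0.65, 95% confidence interval -1.97 to 0.67), and its fitted level was 3.52 at pupal stage 1. The higher count was 7 to 8 when 1 array was left out and 5 without centring, and the lower count was 0 without array a, b or c of pupal stage 2 or a or c of larvae.

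The CPR family is the largest family of insect cuticle proteins and shares a chitin-binding motif. Of its 74 probes 17 rose (23%), 3 fell and 54 did not pass. Of the 74, 36 had no overlap between the stages, as did 17.3% of all probes. Cpr76Bd was at 5.77, 6.24 and 5.24 in pupal stage 2, against -1.08, 0.90 and 0.97 in larvae (difference 5.48 ± 0.90, adjusted p = 0.0019). Cpr64Ac was at 5.84, 5.94 and 5.51 in pupal stage 2, against 0.26, 0.88 and 0.49 in larvae (difference 5.22 ± 0.63). Cpr30B was at 5.87, 6.11 and 6.13 in pupal stage 2, against 0.42, 1.01 and 1.78 in larvae (difference 4.97 ± 0.77). These members had tight values on the arrays of pupal stage 2. Members outside the rule that were called lower were Cpr67B, Cpr49Ac and Cpr62Ba, with differences of -4.36, -2.78 and -2.77. Of members that did not pass, Cpr49Ae was at 5.67, 5.61 and 6.64 in pupal stage 2, against 2.80, 4.69 and 2.10 in larvae (adjusted p = 0.0554). The count of higher probes was 9 without array a of pupal stage 2, 10 without its array c or larval array c, 11 without array b of pupal stage 2 or larval array a and 14 without larval array b, and 6 without centring. The lower count was 3 without array c of pupal stage 2 or larval array a, 1 without array a of pupal stage 2 or larval array b, and 0 without array b of pupal stage 2 or larval array c.

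Tweedle proteins are cuticle components and Osiris genes encode membrane proteins of cuticle-secreting cells. Of 51 probes of the 2 families 6 rose and 1 fell, with a median difference of -0.15. TwdlE was at 3.97, 4.37 and 4.53 in pupal stage 2, against 0.07, 0.84 and 0.26 in larvae (difference 3.90 ± 0.52, adjusted p = 0.000205). TwdlT was at 2.51, 2.56 and 3.60 in pupal stage 2, against 0.19, -0.62 and -0.95 in larvae (difference 3.35 ± 0.38, adjusted p = 3.78e-05). Osi18 was at 3.72, 4.24 and 2.38 in pupal stage 2, against -0.53, -1.18 and -1.36 in larvae (difference 4.47 ± 0.78), and Osi19 at 3.24, 3.29 and 3.33 in pupal stage 2, against 0.92, -1.68 and -1.86 in larvae (difference 4.16 ± 0.80). At pupal stage 1 the fitted levels of Osi18 and Osi19 were -0.89 and -0.30, and they stood at 4.74 and 5.53 in embryos of 12 to 16 h. TwdlD, whose fitted level was 6.48 in embryos of 12 to 16 h, was at -1.82, -2.16 and -1.33 in pupal stage 2, against 0.45, 1.86 and 0.00 in larvae, and did not pass (adjusted p = 0.0752). The higher count was 4 without any 1 array of pupal stage 2 or larval array c, and 1 without centring. The lower probe, of TwdlF, was lost without any array of pupal stage 2 or array b or c of larvae, and 2 were lower without larval array a.

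Enzymes that build, trim and harden the cuticle were also higher in part. Of 29 probes for chitin synthesis and turnover 4 rose and 1 fell. The chitin deacetylase gene serp was at 2.73, 3.09 and 3.94 in pupal stage 2, against 0.08, 0.41 and 0.34 in larvae (difference 2.98 ± 0.53, adjusted p = 0.00388). Cda5, another deacetylase, was at 3.88, 4.09 and 3.46 in pupal stage 2, against 0.31, 1.13 and -0.29 in larvae (difference 3.42 ± 0.69), and 2 probes of each gene were called. Cda5 was at 3.33 without array b of pupal stage 2 and 3.02 without larval array c (adjusted p = 0.0616 and 0.0568), and the higher count was 1 without either and 2 without array a or c of pupal stage 2. The chitinase Cht9 fell by 2.15 (adjusted p = 0.0447) and missed the threshold without any 1 array other than larval array a (adjusted p = 0.083 to 0.235). Cht5, a moulting chitinase, was at 1.89, 1.88 and 3.10 in pupal stage 2, against 0.35, 1.14 and 0.94 in larvae, and did not pass (adjusted p = 0.133).

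Of 22 probes for tanning and body pigment enzymes 4 rose and 0 fell. stw, the laccase that cross-links cuticle proteins, was at 2.70, 2.85 and 3.76 in pupal stage 2, against -0.07, 0.10 and -0.23 in larvae (difference 3.17 ± 0.49, adjusted p = 0.00094), and a second of its probes was called. y (yellow), needed for black pigment, was at 4.08, 4.23 and 3.17 in pupal stage 2, against -0.14, 1.93 and 0.69 in larvae (difference 3.00 ± 0.53, adjusted p = 0.00384). Pu, the GTP cyclohydrolase that starts the synthesis of pterins and of a cofactor of dopamine synthesis, was at 2.98, 3.53 and 3.36 in pupal stage 2, against 0.68, 1.11 and 0.68 in larvae (difference 2.46 ± 0.46). The dopamine pathway genes ple, Ddc and e, named outside the rule, differed by -0.18, 0.69 and 1.10 and did not pass. The relative yellow-f was at 3.08, 3.27 and 0.99 in pupal stage 2, against -1.99, 1.46 and -1.43 in larvae (adjusted p = 0.0751). The list had 3 to 5 higher probes when 1 array was left out and 0 without centring. Cyp4g1, the cytochrome P450 that makes the hydrocarbons of the waxy cuticle layer, was at 3.72, 3.89 and 4.53 in pupal stage 2, against -0.63, 0.58 and 0.84 in larvae (difference 3.78 ± 0.59, adjusted p = 0.00112), 1 of 2 higher and 1 lower among 124 probes for cytochromes P450 and glutathione transferases.

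**Figure D4:**
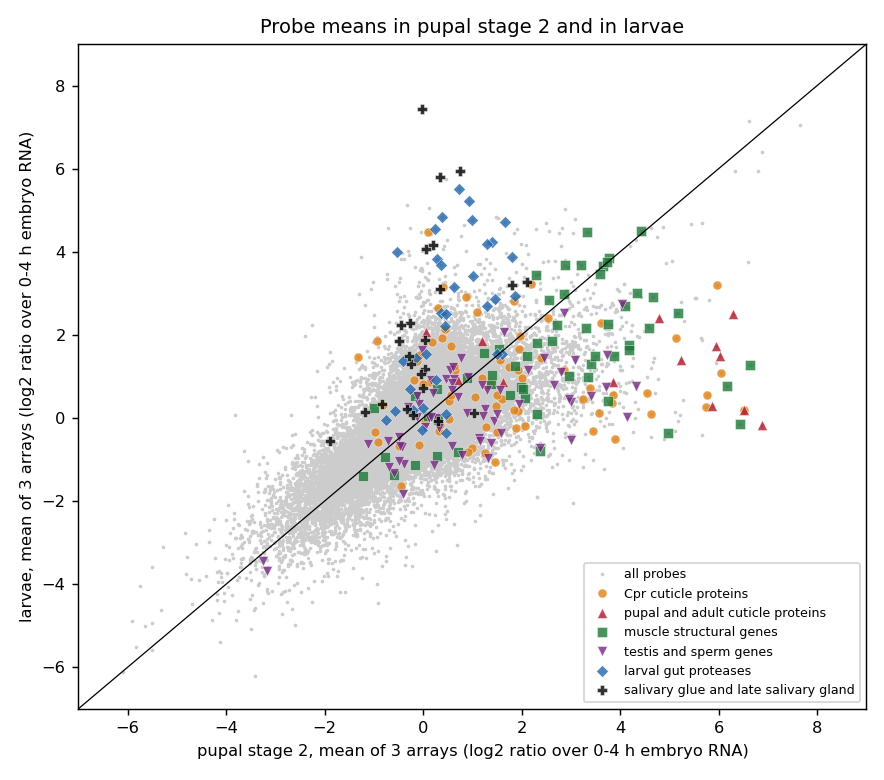
Mean level of each probe over the 3 arrays of pupal stage 2 (x axis) and over the 3 arrays of larvae (y axis), both as log2 ratios over 0 to 4 h embryo RNA, with all probes in grey, the members of 6 gene lists in colour and a line of equal levels. Most probes of the cuticle, muscle and sperm lists lie to the right of the line and most of the gut protease and salivary gland lists above it. Other members of each list lie on the opposite side.

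All calls among muscle structural genes were higher in pupal stage 2. Larvae move with body wall muscles of their own, most of which break down in the pupa while the muscles of the adult form. Of 57 probes for muscle structural genes 7 rose (12.3%) and 0 fell, and the median difference was 0.78. These counts leave out mesh, which was taken out of the list after its values were seen. TpnC4, the troponin C of flight muscle that answers to stretch, was at 6.02, 6.26 and 7.03 in pupal stage 2, against 0.35, -1.66 and 0.89 in larvae (difference 6.58 ± 0.77, adjusted p = 5.34e-05). TpnC41C, another troponin C, was at 6.52, 6.79 and 6.58 in pupal stage 2, against 1.10, 0.65 and 2.11 in larvae (difference 5.34 ± 0.47). fln, flightin of the thick filaments of flight muscle, was at 4.34, 4.67 and 5.92 in pupal stage 2, against -0.53, -0.21 and -0.37 in larvae (difference 5.34 ± 0.57). Scp1, which binds calcium in the sarcoplasm, was at 5.57, 6.29 and 6.62 in pupal stage 2, against 0.72, 2.56 and -1.0 in larvae (difference 5.40 ± 0.86). A second probe of Scp1 differed by 3.18 ± 0.95 and did not pass (adjusted p = 0.103), another by 0.97, and duplicate spots of the first lay up to 5.24 apart. Act88F, the flight muscle actin, named outside the rule, was at 1.88, 1.48 and 2.70 in pupal stage 2, against 0.85, 0.83 and 0.43 in larvae and did not pass (adjusted p = 0.0974). The troponin T gene up was at 4.35, 4.98 and 6.17 in pupal stage 2, against -0.19, 4.96 and 2.78 in larvae, and did not pass (adjusted p = 0.174). The count of higher probes was 4 without array b or c of pupal stage 2 or larval array a, 5 without array a of pupal stage 2, 7 without larval array c, 8 without larval array b and 13 after quantile normalization.

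Genes of the eye gave a small number of higher calls. The adult eye is built from a disc during metamorphosis and its photoreceptors start their visual pigment cascade late in it. Of 37 probes for phototransduction and eye genes 4 rose (10.8%) and 0 fell. chp, the cell surface protein chaoptin of photoreceptors, was at 2.18, 2.36 and 3.32 in pupal stage 2, against -0.80, -2.05 and -0.66 in larvae (difference 3.79 ± 0.85, adjusted p = 0.0202). Cpr72Ec, a cuticle protein gene placed in this list for the corneal lens, differed by 3.30 ± 0.48, although its duplicate spots lay up to 7.43 apart. Ggamma30A, a G protein subunit of photoreceptors, was at 3.08, 3.63 and 2.54 in pupal stage 2, against -0.20, 0.86 and 1.25 in larvae (difference 2.45 ± 0.48), and Arr2, an arrestin, at 2.66, 2.19 and 2.33 in pupal stage 2, against -0.02, 0.60 and -0.32 in larvae (difference 2.30 ± 0.57). The channel gene trp was at 2.61, 3.36 and 2.92 in pupal stage 2, against -0.23, -0.60 and 0.23 in larvae and did not pass (adjusted p = 0.189). Without centring the list had 0 higher probes. Without array b of pupal stage 2 it had 1, with chp at 3.85 (adjusted p = 0.0786), Ggamma30A at 2.28 (adjusted p = 0.0656) and Arr2 at 2.41 (adjusted p = 0.108), and without its array a or c or larval array b it had 2. chp also missed the threshold without those 3 arrays (adjusted p = 0.065 to 0.108), and Arr2 without any 1 array (adjusted p = 0.0505 to 0.158). Pdh, a retinol dehydrogenase of the eye named outside the rule, was at 3.93, 4.09 and 4.92 in pupal stage 2, against 0.44, -0.34 and -0.11 in larvae (difference 4.31 ± 0.64, adjusted p = 0.000668). Of 19 probes for eye pigment genes 0 passed by limma in either direction, with 3 higher and 1 lower at an unadjusted p under 0.05.

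Neuronal and chemosensory genes gave 3 calls. Of 68 probes for neuronal genes 1 fell, Vmat, the vesicular transporter of monoamines, at -0.45, -0.35 and -0.06 in pupal stage 2, against 1.87, 2.92 and 2.59 in larvae (difference -2.75 ± 0.46, adjusted p = 0.00226). A second probe of Vmat differed by -0.04. Of 201 probes for odorant binding and chemosensory genes 1 rose and 1 fell. Or49b, an odorant receptor, was at 3.94, 5.04 and 3.54 in pupal stage 2, against 0.09, 1.20 and 1.34 in larvae (difference 3.30 ± 0.50, adjusted p = 0.000926). The odorant binding protein gene Obp19d fell by 2.08, although its duplicate spots lay up to 6.52 apart, and by 1.71 without array a of pupal stage 2 (adjusted p = 0.178), and it also missed the threshold without array b of pupal stage 2 or b or c of larvae. Obp99b was at 6.04, 6.62 and 7.12 in pupal stage 2, against 0.11, 4.92 and 6.22 in larvae, where array a stood far below the others, and did not pass (adjusted p = 0.193).

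All calls among genes of testis and sperm were higher in pupal stage 2, while most members did not pass. Spermatogenesis begins in larvae, and late genes of sperm shaping act as the first spermatids elongate. Of 67 probes for testis and sperm genes 10 rose (14.9%) and 0 fell. Of the 67, 22 had no overlap between the stages, as did 17.3% of all probes. Mst77F, a protein that replaces histones in sperm, was at 3.93, 4.16 and 4.31 in pupal stage 2, against 1.12, 0.35 and -1.43 in larvae (difference 4.12 ± 0.88, adjusted p = 0.0154). dj, don juan of the sperm tail, was at 4.47, 4.72 and 3.75 in pupal stage 2, against 0.44, 0.92 and 0.94 in larvae (difference 3.55 ± 0.68, adjusted p = 0.00696). Its neighbour and relative djl was at 2.92, 2.35 and 3.71 in pupal stage 2, against -0.19, -0.64 and -0.77 in larvae (difference 3.53 ± 0.60). bol, boule, which acts in meiosis, was at 1.86, 1.95 and 3.29 in pupal stage 2, against 0.07, -1.67 and -0.55 in larvae (difference 3.08 ± 0.60). The regulators of the meiotic transcription programme aly, can and comr, named outside the rule, did not pass, with differences of -0.57 and -0.41 for 2 probes of aly, -1.65 for can and -0.64 for comr. The higher count was 3 without array b or c of pupal stage 2, 4 without its array a, 6 without larval array c and 7 without larval array a or b, and it was 0 without centring and 15 after quantile normalization. Without array b of pupal stage 2 dj was at 3.31 (adjusted p = 0.0544) and Mst77F at 4.04 (adjusted p = 0.077). Mst77F missed the threshold without array a or c of pupal stage 2 or larval array c too, and bol without array c of pupal stage 2 (2.67, adjusted p = 0.0641). The labels give no sex for the pupae or the larvae, so the share of males in each was not tested.

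Of 16 probes for male accessory gland and ejaculatory genes 1 rose, EbpIII, a protein of the ejaculatory bulb, at 4.25, 2.22 and 4.23 in pupal stage 2, against 0.94, 0.88 and 0.52 in larvae (difference 2.79 ± 0.46, adjusted p = 0.00195). Of the yolk protein genes Yp2 and Yp3 were called. Yp2 was at 4.04, 4.17 and 4.85 in pupal stage 2, against -0.46, 0.74 and 0.39 in larvae (difference 4.13 ± 0.45, adjusted p = 2.61e-05), and a second probe of it was called at 3.09. Yp3 was at 1.41, 1.59 and 2.30 in pupal stage 2, against -0.38, 0.05 and 0.14 in larvae (difference 1.83 ± 0.45, adjusted p = 0.0375), and missed the threshold without any 1 array (adjusted p = 0.06 to 0.178). Yp1 was at 3.71, 3.48 and 3.95 in pupal stage 2, against 0.09, -0.64 and 2.36 in larvae, and did not pass (adjusted p = 0.0871). Yolk proteins are made by the fat body and ovary of adult females, and the fitted level of Yp2 was 0.44 at pupal stage 1, 4.39 at pupal stage 2, 0.24 at pupal stage 3 and 6.22 in adults. Eggshell genes of the same list did not pass, with Cp7Fc at -0.16, 0.24 and 1.42 in pupal stage 2, against 2.25, 1.09 and 2.38 in larvae. In all 3 of 20 yolk and eggshell probes rose and 0 fell, and the count was 1 without array c of pupal stage 2. The labels give no age for the pupae, and the part of their staging, or of adult material among them, in the yolk gene values was not tested.

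The fat body, which stores protein and fat for the non-feeding pupa, gave 2 higher calls among 13 probes. Fbp2 was at 4.30, 4.71 and 6.88 in pupal stage 2, against 3.28, 1.92 and 1.79 in larvae (difference 2.96 ± 0.66, adjusted p = 0.019), and Tsf1, the iron carrier transferrin, at 2.61, 3.86 and 2.75 in pupal stage 2, against 0.21, 0.93 and 1.43 in larvae (difference 2.22 ± 0.48, adjusted p = 0.0168). Without array b of pupal stage 2 both missed the threshold (adjusted p = 0.0594 and 0.13), as without its array c and larval array b. Fbp2 missed it also without larval array c and Tsf1 without larval array a. Lsp2, a serum storage protein, and Fbp1, a fat body receptor of another storage protein, both named outside the rule, stood high in both stages. Lsp2 was at 6.78, 6.56 and 6.52 in pupal stage 2, against 6.69, 7.58 and 7.21 in larvae for 1 probe (difference -0.54, 95% confidence interval -1.77 to 0.69). Fbp1 was at 5.99, 6.75 and 7.65 in pupal stage 2, against 5.71, 6.02 and 6.08 in larvae (difference 0.86, 95% confidence interval -0.12 to 1.84).

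The regulators of metamorphosis themselves gave no calls. Of 29 probes for transcription factors of the ecdysone response 0 passed by limma, with 3 higher and 2 lower at an unadjusted p under 0.05. The largest difference among them was that of rig, a partner of nuclear receptors, at -2.67, -2.88 and -3.46 in pupal stage 2, against 0.15, -2.40 and -2.15 in larvae (adjusted p = 0.435). chinmo, a regulator of developmental timing, was at -0.56, -0.37 and 1.57 in pupal stage 2, against 1.49, 1.46 and 1.32 in larvae (adjusted p = 0.312). Of 20 probes for ecdysone and juvenile hormone metabolism 0 passed, with 0 higher and 2 lower at an unadjusted p under 0.05. dib, an enzyme of ecdysone synthesis, was at -2.01, -1.77 and -1.20 in pupal stage 2, against 0.08, 1.30 and -1.51 in larvae, and shd, which makes the active hormone in target tissues, at 0.18, 0.26 and -1.01 in pupal stage 2, against 0.77, 1.63 and 1.64 in larvae (adjusted p = 0.396 and 0.24). Of 11 other ecdysone-induced probes 0 passed, with 1 higher and 1 lower at an unadjusted p under 0.05. ImpE1 was at 0.95, 1.65 and 0.49 in pupal stage 2, against -0.38, -2.93 and -0.30 in larvae (adjusted p = 0.163), and Sb, the stubble protease of discs, at 0.29, 0.47 and 0.33 in pupal stage 2, against 0.21, 2.58 and 2.56 in larvae (adjusted p = 0.395). With an SE near 0.60 these tests do not show that the levels were alike.

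Patterning and differentiation genes of the discs gave no calls either. Of 49 probes for imaginal disc patterning 0 passed, with 1 higher and 0 lower at an unadjusted p under 0.05, and of 16 for wing and bristle differentiation 0, with 1 higher and 1 lower. The signal gene hh was at 0.07, -0.14 and -0.30 in pupal stage 2, against 0.36, 2.56 and 1.45 in larvae (adjusted p = 0.473), and al, a homeobox gene, at -0.16, -0.18 and 0.14 in pupal stage 2, against 2.13, 2.89 and -1.02 in larvae (adjusted p = 0.493). dyl, a zona pellucida protein of wing hair cells, was at 0.79, 1.37 and 2.29 in pupal stage 2, against 1.48, 6.31 and 0.74 in larvae, and f (forked), of bristle actin bundles, at -0.12, 0.43 and 0.55 in pupal stage 2, against -1.27, -0.51 and -0.93 in larvae (adjusted p = 0.642 and 0.445).

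Genes of the respiratory chain, which makes most of a cell's ATP, had mostly positive differences. Of 76 probes 62 had a positive difference, 3 rose, 1 fell, and the median difference was 0.78 against -0.07 over all probes. ATPsynG, a subunit of the ATP synthase, was at -0.52, 0.02 and 1.43 in pupal stage 2, against -1.20, -2.29 and -1.73 in larvae (difference 2.05 ± 0.43, adjusted p = 0.0137). ND-B14.5AL, a duplicate of a complex I subunit, differed by 1.78 ± 0.40, and ND-20L, another duplicate, was at -0.29, -0.24 and -0.66 in pupal stage 2, against 0.10, 2.06 and 3.84 in larvae (difference -2.39 ± 0.55), with duplicate spots up to 5.25 apart. Without array b of pupal stage 2 all 3 genes missed the threshold (adjusted p = 0.0715, 0.142 and 0.121) and the higher count was 0, as it was without larval array b. It was 1 without array a or c of pupal stage 2 and 2 without larval array a or c, and the lower count was 0 without any 1 array of pupal stage 2 or larval array c.

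Of 42 probes for DNA replication and the cell cycle 1 fell, Mcm5 of the replicative helicase, at -3.08, -3.73 and -2.08 in pupal stage 2, against -0.24, -0.92 and -1.13 in larvae (difference -2.20 ± 0.56, adjusted p = 0.0449). It missed the threshold without any 1 of the 6 arrays (adjusted p = 0.0727 to 0.212). The origin protein gene Orc1 was at -3.12, -3.93 and -2.98 in pupal stage 2, against -0.15, -1.69 and -1.47 in larvae (adjusted p = 0.26), and the list's median difference was -0.56. Both stages lay below the median probe in this list, with median levels of -2.98 in pupal stage 2 and -2.36 in larvae. Of 44 probes for cell death and autophagy 1 fell, Atg14, part of the lipid kinase complex that starts autophagosomes, at -1.82, -1.82 and -0.15 in pupal stage 2, against 2.24, 0.80 and -0.13 in larvae (difference -2.23 ± 0.46, adjusted p = 0.0128). It missed the threshold without array a or b of pupal stage 2 or larval array a (adjusted p = 0.0635 to 0.0808). Atg1, the kinase that starts autophagy, was at -1.06, -1.24 and -1.48 in pupal stage 2, against 4.32, -0.57 and -0.83 in larvae, where array a alone was high, and did not pass (adjusted p = 0.27).

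Further lists had a single call or none. The 41 probes for cytosolic ribosomal proteins held 1 higher call, RpL10Aa (2.95 ± 0.69, adjusted p = 0.0284), a duplicate of a large-subunit gene. The 17 heat shock probes held Hsp60C, a chaperonin gene (2.97 ± 0.72, adjusted p = 0.0332), higher, the 37 probes for antimicrobial peptides and immune genes BomT3, of the bomanin peptides (2.34 ± 0.51, adjusted p = 0.0176), higher, and the 21 for matrix remodelling SPARC, a collagen-binding protein of basement membranes (2.27 ± 0.56, adjusted p = 0.0379), higher. The 12 tubulin probes held betaTub60D (1.52 ± 0.38, adjusted p = 0.0418), higher, while the 32 probes for lipid metabolism held Desat1, a fatty acid desaturase (-2.38 ± 0.57, adjusted p = 0.032), lower, and the 30 for the vacuolar proton pump Vha100-4 (-1.70 ± 0.44, adjusted p = 0.0485), lower. None of these 7 calls passed without array b of pupal stage 2, with adjusted p of 0.0755 for BomT3, 0.116 for SPARC, 0.128 for Hsp60C, 0.146 for Desat1, 0.175 for betaTub60D, 0.176 for RpL10Aa and 0.198 for Vha100-4. betaTub60D missed the threshold without any 1 of the 6 arrays (adjusted p = 0.0522 to 0.188). SPARC, Hsp60C, Desat1 and Vha100-4 each missed it without 5 of the 6, BomT3 without 4 and RpL10Aa without 3. Of 15 probes for glycolysis, 26 for proteasome subunits and 8 for alcohol and acetate metabolism 0 passed by limma, and 0 had an unadjusted p under 0.05. Their largest differences were those of Treh (0.88 ± 0.46), Rpn2 and Prosalpha7 (-1.0 ± 0.53 and -1.03 ± 0.68) and Men (-1.47 ± 0.84).

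Of the 407 called probes with 1 symbol the lists hold 79 higher and 40 lower. Another 288 lie outside them, 182 higher and 106 lower, and 195 of the called genes carry only a number, 114 higher and 81 lower. Called genes often stood near each other in the RefSeq gene order of the genome. Of 240 genes called higher and placed in that order, 75 (31.2%) had another higher gene among the 5 tested genes on either side, against 18.2% of the 10933 genes not called higher. Of 137 genes called lower, 42 (30.7%) had another lower gene as near, against 10.1% of the 11036 genes not called lower. The longest run of lower genes, on chromosome 3L, was CG32241, CG32249, CG32248, CG11349, CG7465 and CG13722. CG32241 was at 0.94, 0.83 and 0.52 in pupal stage 2, against 3.85, 5.80 and 3.47 in larvae, and CG7465 at -0.39, -0.01 and -0.94 in pupal stage 2, against 3.23, 5.67 and 2.57 in larvae for 1 of its 2 called probes. A run on the X held CG14419, CG3588, CG32793, CG14422 and CG14423, and another on 3L the proteases CG10477, yip7, Jon65Aiv and Jon65Aiii. Among higher genes a run on 3R held CG1137, sowi, CG15177 and CG31286. sowi was at 3.09, 3.23 and 2.80 in pupal stage 2, against 0.18, -3.28 and -3.05 in larvae (difference 5.09 ± 0.89). Neighbouring duplicates can share sequence, and binding of 1 gene's RNA to another's probe was not tested.

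**Figure D5:**
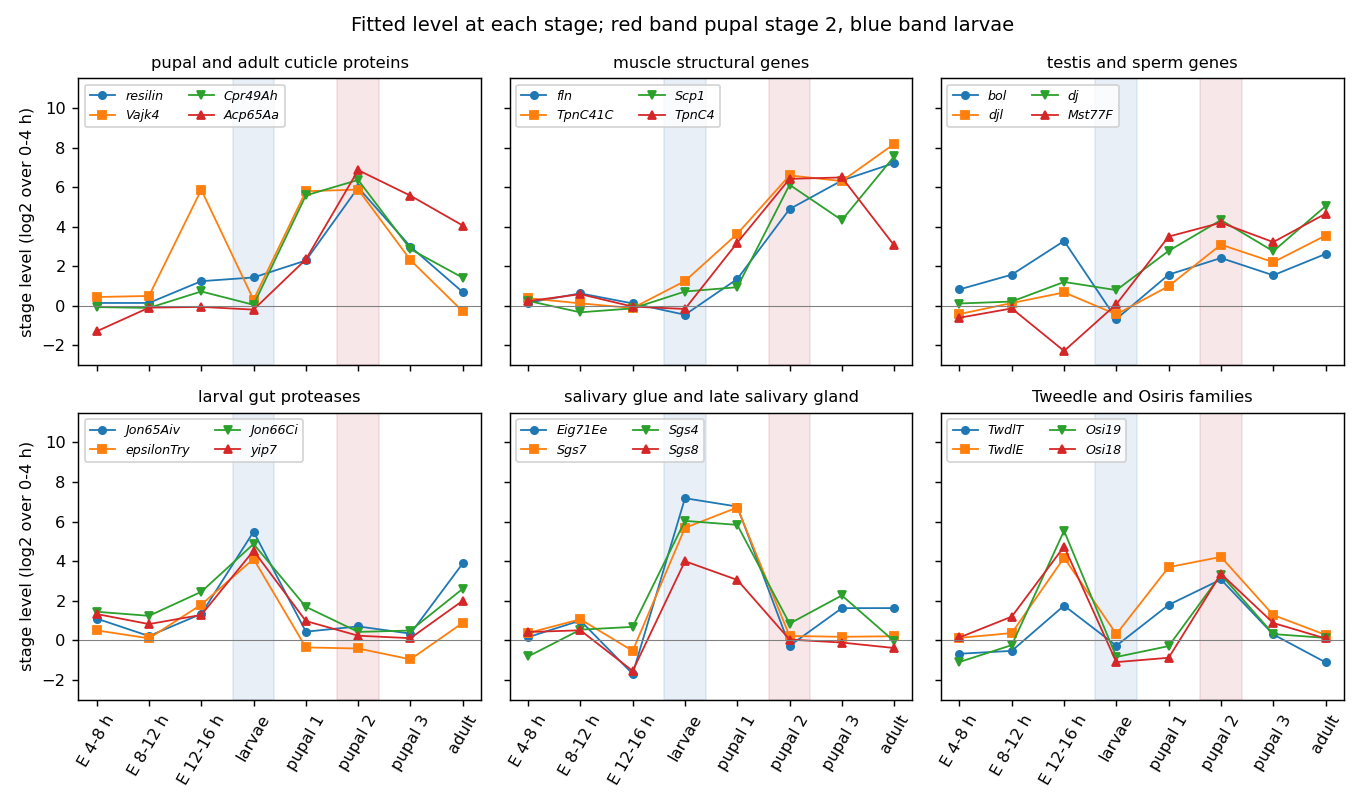
Fitted level (log2 over 0 to 4 h embryo RNA) at the 8 stages, in order of age, of the 4 named called genes of 6 lists. A red band marks pupal stage 2 and a blue band larvae. The salivary gland genes lie above 3 at pupal stage 1 and below 1 at pupal stage 2, and the 4 cuticle genes have their highest fitted level at pupal stage 2.

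The other stages of the series place these differences in the life cycle. The levels below share the arrays of pupal stage 2 and larvae with the calls and are given as a description. Over the 313 probes called higher the median fitted level was 0.44 in embryos of 12 to 16 h, -0.01 in larvae, 1.43 at pupal stage 1, 2.67 at pupal stage 2, 1.32 at pupal stage 3 and 1.61 in adults. The stage with the highest fitted level was pupal stage 2 for 137 of them, adults for 98, embryos of 12 to 16 h for 47 and another stage for the remainder. Over the 171 probes called lower the median was 0.54 in embryos of 12 to 16 h, 2.61 in larvae, 0.42 at pupal stage 1, -0.35 at pupal stage 2, -0.04 at pupal stage 3 and 0.30 in adults, and larvae held the highest level for 122.

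The named genes followed several courses. Of the glue genes, Sgs7 was at 6.71, Sgs4 at 5.83 and Sgs8 at 3.05 at pupal stage 1, and they stood at 0.21, 0.84 and 0.03 at pupal stage 2. Eig71Ee was at 6.76 at pupal stage 1 and -0.28 at pupal stage 2. At pupal stage 1 the gut proteases ran from -0.36 for epsilonTry, 0.43 for Jon65Aiv and 0.97 for yip7 to 1.69 for Jon66Ci, 1.89 for Jon44E and 2.43 for Jon25Bi. In adults Jon65Aiv was at 3.89, Jon66Ci at 2.60 and epsilonTry at 0.88. Of the cuticle genes, Cpr49Ah was at 5.58 at pupal stage 1, 6.37 at pupal stage 2 and 2.86 at pupal stage 3, whereas resilin was at 2.29, 5.98 and 2.99 and Acp65Aa at 2.35, 6.86 and 5.57 at the same stages. Vajk4, at 5.80 at pupal stage 1 and 5.88 at pupal stage 2, was also at 5.87 in embryos of 12 to 16 h, when larval cuticle is laid down. The muscle genes fln, TpnC41C and Scp1 were at 7.22, 8.19 and 7.56 in adults, while TpnC4 was at 6.42 at pupal stage 2, 6.49 at pupal stage 3 and 3.06 in adults. Arr2 was at 2.39 at pupal stage 2, 2.50 at pupal stage 3 and 5.14 in adults. Of the sperm genes, dj was at 2.78, 4.34 and 2.76 at pupal stages 1, 2 and 3 and 5.04 in adult flies. Pupal stage 1 rests on 2 arrays with the stage in Cy5, so its levels rest on fewer arrays than the others. With no Cy3 array, they also depend on a dye term estimated from the other stages. Duplicate spots correlated at 0.374 on its array a and at 0.468 on its array b.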

How the data were processed

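The study hybridized RNA of 8 life-cycle stages, 3 arrays each, against RNA of 0 to 4 h embryos on two-colour spotted glass arrays, of which the 3 arrays of pupal stage 2 and the 3 of larvae are compared here. Per the labels, 20 µg of total RNA was labelled indirectly, slides were scanned with ScanArray 3.1 and quantified with GenePix 4.0, and hybridizations were kept by the spread of duplicate spots. How background was corrected, ratios normalized and failed spots handled is not given in the sources used here. As values the authors deposited log2 ratios of Cy5 over Cy3 for 47616 spots, uncentred (the deposited medians of the 6 arrays ran from -0.98 to 2.38), and 1 column, array c of pupal stage 1, holds no ratio and was not used.

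Ratios were turned to stage over embryo (times -1 for a Cy3 stage), 633 values at either end of the scale were treated as missing, array medians were set to 0, and the 2 spots of a probe were averaged, giving 23808 probes. Platform annotation gave 13455 probes 1 symbol (11663 genes), 153 several and 10200 none; 12851 of the 13455 matched the RefSeq gene table. limma 3.58.1 in R 4.3.3 (lmFit, eBayes) was fitted over 23 arrays with 1 coefficient per stage and a dye term per probe (residual df 14, prior df 5.71; the dye term passed for 3632 probes), two-sided, adjusted by Benjamini-Hochberg over all probes. Tested on simulated data with independent noise, no dye effect and 200 changed probes, it made calls with 0 wrong signs and called 11 unchanged probes. Precision is limited by the 3 arrays per stage.

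The comparison, its members and the 38 gene lists were chosen with earlier results of these data known, and no list was tested as a set. mesh, no sarcomere gene, was taken out of the muscle list after its values were seen. Named genes are the 12 highest and 12 lowest differences among called probes with 1 symbol, measured on all 6 arrays without overlap, and per list the 4 largest called and 2 largest uncalled differences; others are said to be outside this rule. Alternatives covered centring, quantile normalization, the dye term, the arrays fitted, the replicate block, averaging arrays a and b of pupal stage 2, 4 arrays that stand apart (larval a, 4 to 8 h a and b, 8 to 12 h a), close duplicate spots, limit values and leaving out each array.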

Additional observations from a re-analysis of the deposited data

How the results depend on the processing

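Of the calls shared between the reported fit and a setting, 0 changed sign, with 113 of the 484 shared without centring and 86 with only the 6 arrays. Of the 75 named calls 0 changed sign in any setting, lost or not. The signs of other lost calls were not counted. Probes called (higher and lower in pupal stage 2) numbered 120 without centring (33 and 87), 297 without the dye term (204 and 93), 91 with only the 6 arrays (64 and 27), 193 when pupal stage 2 a and b were averaged into 1 array (131 and 62), 223 with duplicate spots within 1 of each other (169 and 54), and 373 without the 4 arrays that stand apart (183 and 190). The share of calls that were higher was 64.7% in the reported fit, 27.5% without centring, 49.1% without the 4 arrays and 75.8% with close duplicate spots. With close duplicate spots only 6339 probes were tested, among them 138 of the 484 calls, and all 138 passed again. The 6-array fit has fewer residual degrees of freedom. For the other settings the cause was not tested. Quantile normalization (650), the 4 arrays as a block (432) and limit values kept (456) left the total within 1.5 times. Leaving out 1 array gave 173 to 512 calls, 115 to 257 higher and 58 to 255 lower.

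The labels do not say that the letters a, b and c pair the arrays. Deviations of same-lettered arrays from their stage mean correlated at -0.37, 0.17 and -0.35. The arrays lettered a have opposite dyes in the 2 stages, as do those lettered c, and those lettered b share Cy3. The highest value, 0.47, joined the 2 Cy5 arrays, so these values cannot decide whether the letters pair. The replicate block gave 446 calls (301 higher, 145 lower). Of 75 named calls, 41 passed without any 1 array. Of 18 never lost, 5 were run under all 16 alternatives and 13 under 15, since their duplicate spots were not close; 42 were lost without centring and 48 with only the 6 arrays. Whether spots lay above background cannot be judged, as no intensities are given.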
